A study of Mus musculus with 12 samples.

Results

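The loci described here are 6 paternally expressed imprinted transcripts that lie inside other genes: Nnat, Mcts2, Nap1l5, variant 2 of Inpp5f, Zrsr1 and Peg13. Each was taken as a fixed mm9 window of 25 kb, or 30 kb for Peg13, and the members are the 20 peaks that fell in these windows, out of 13716 peaks in 4 lists. The lists give binding of ZFP57 and of KAP1, measured by chromatin immunoprecipitation and sequencing (ChIP-seq) with 1 library each, in the wild-type mouse embryonic stem cell lines A3 (129X1/SvJ) and E14 (129P2/OlaHsd). Both lines were grown without feeders in serum and LIF, A3 with 10% serum and added non-essential amino acids and E14 with 15% serum, so line, strain and medium cannot be told apart. The series also holds cells of the A3 background that lack Zfp57, inputs and H3K9me3 libraries. These 8 libraries were not analysed here.

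Genomic imprinting leaves 1 parental copy of a gene silent, and the mark that separates the copies is DNA methylation laid down in egg or sperm. At the loci described here the mark is known to come from the egg and to cover the promoter of the inner transcript, so that the paternal copy is the active one. ZFP57 is a KRAB zinc finger protein that binds the methylated copy at its recognition hexamer, TGCCGC, and recruits KAP1 (TRIM28), a scaffold for the enzymes that write H3K9me3 and keep DNA methylated through early development. The host genes are Blcap for Nnat, H13 for Mcts2, Herc3 for Nap1l5, Commd1 for Zrsr1 and Trappc9 for Peg13. In the RefSeq gene table of assembly GRCm38.p6 each of these 5 inner genes lay within the span of its host. Nnat, Nap1l5 and Zrsr1 were read in the opposite direction to their hosts and Mcts2 in the same direction. Variant 2 of Inpp5f is a transcript from an internal promoter of Inpp5f itself and has no entry of its own there. The table gives no exons, so an intronic position was not checked.

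The promoters of the inner genes are shown because they are where the egg-derived mark is known to lie and because the hexamer can be read in them. RefSeq promoters of GRCm38.p6 cover 250 bases before and 50 bases after each start site, and they come from the C57BL/6J reference, not from the strains of the cells. Their coordinates are not on the scale of the mm9 peaks, so no motif was placed inside a peak. Of the 5 inner genes with their own name, 4 had a promoter in the table. The 250 bases before the start are printed 5′ to 3′ in the direction of transcription, with TGCCGC or its reverse complement in capitals. Mcts2 is at chr2:152686898-152687147 on the plus strand, Nap1l5 at chr6:58907127-58907376 on the minus strand and Zrsr1 at chr11:22971755-22972004 on the plus strand.
Mcts2: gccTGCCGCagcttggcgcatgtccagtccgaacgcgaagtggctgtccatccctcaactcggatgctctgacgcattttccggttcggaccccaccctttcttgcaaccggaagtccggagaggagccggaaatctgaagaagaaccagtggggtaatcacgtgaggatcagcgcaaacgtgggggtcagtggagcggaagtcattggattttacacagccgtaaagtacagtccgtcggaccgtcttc
Nap1l5: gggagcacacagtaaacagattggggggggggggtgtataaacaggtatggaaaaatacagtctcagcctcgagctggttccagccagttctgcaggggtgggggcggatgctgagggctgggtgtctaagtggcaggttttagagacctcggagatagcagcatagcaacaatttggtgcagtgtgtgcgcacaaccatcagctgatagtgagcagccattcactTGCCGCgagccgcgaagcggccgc
Zrsr1: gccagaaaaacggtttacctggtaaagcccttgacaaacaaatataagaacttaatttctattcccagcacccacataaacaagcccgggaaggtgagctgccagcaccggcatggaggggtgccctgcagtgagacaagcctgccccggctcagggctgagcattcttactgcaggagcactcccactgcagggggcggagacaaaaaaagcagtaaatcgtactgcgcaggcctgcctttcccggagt

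The hexamer was searched as TGCCGC and as GCGGCA, its form on the opposite strand, and no matches overlapped in the promoters named here. Nap1l5 held 2 matches, from 24 bases before the start and from position 28 of the transcript, and Mcts2 held 1 from 247 bases before the start. Nnat held 1, on the opposite strand, from position 28 of its transcript. Zrsr1 had no match in this window, which says nothing about the rest of that locus. The 30 bases around the matches inside the transcripts were these.
Nnat: gccaccggggctGCGGCAttgcgcccagca
Nap1l5: gccgtcagcgttTGCCGCatcttcagacgc
Thus 3 of the 4 promoters held the hexamer, against 11.6% of all 32851 promoters and 26.2% of the 10320 with at least 17 CpG, the number found at Nnat and Nap1l5. Mcts2 had 25 CpG and Zrsr1 10, where the median promoter had 7. Of the hosts, Blcap, H13, Herc3, Commd1 and Inpp5f had promoters in the table and Trappc9 had none. Commd1 held a match, 1 in the first of its 2 promoters, and 1 of 5 hosts is near the shares above. No match was found at the X-linked relatives Mcts1, Zrsr2 and Nap1l3, and Nap1l2 had no promoter there. The hexamer holds a CpG, and Mcts1 had only 3 and 2 CpG in its 2 promoters, Nap1l3 9 and Zrsr2 18. These counts are too small to set the inner genes apart from hosts or relatives. A match describes letters in the reference and is not a measured site.

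**Figure D1:**
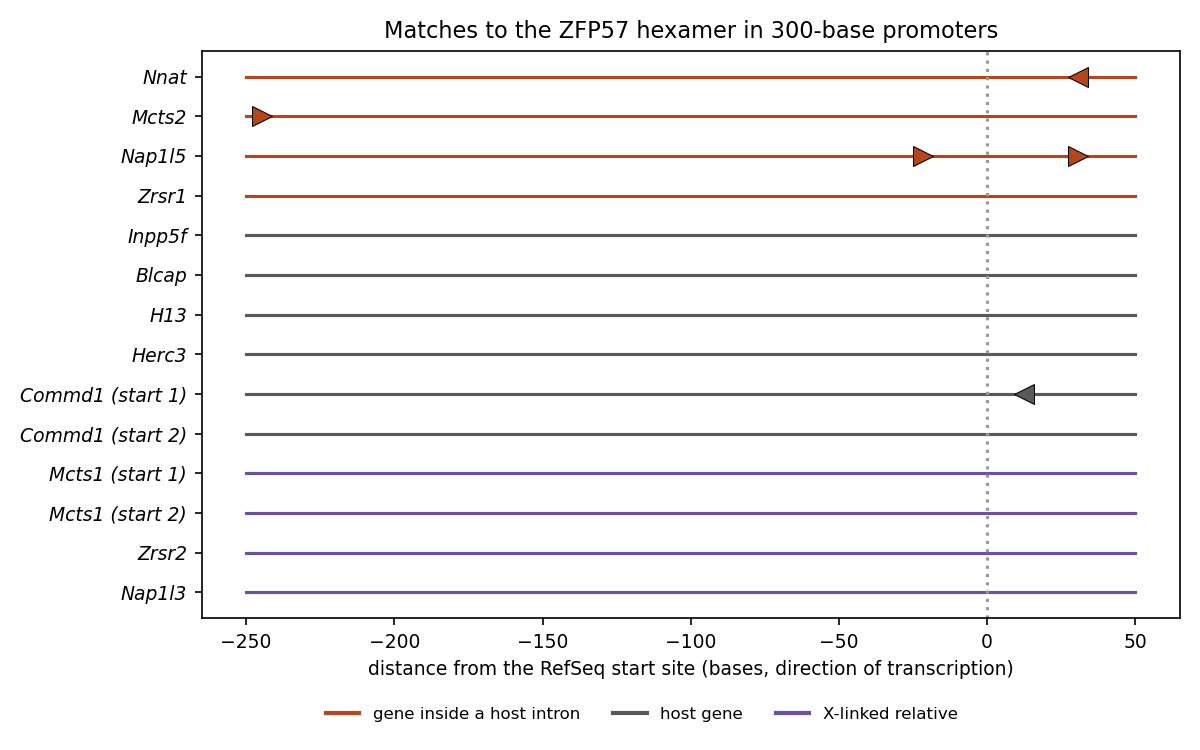
Position of each match to TGCCGC (triangles, pointing right on the promoter strand and left on the opposite strand) in 300-base RefSeq promoters, with distance from the start site in bases on the x axis and 1 line per promoter. Nap1l5 holds 2 matches, Nnat, Mcts2 and the first Commd1 promoter 1 each, and the other promoters none.

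The lists give the start and end of each peak on a 150 bp grid and no height, read count or p-value, so a peak can be described by its presence, width and position only. The depth of the libraries is unknown. Touching peaks of 1 list were joined, which at these loci affected only E14 ZFP57 at Nnat. The lists held 1485 (A3 ZFP57), 10295 (A3 KAP1), 602 (E14 ZFP57) and 1334 (E14 KAP1) peaks. With 1 library per group no difference between lines or proteins could be tested, and none of the counts below has a replicate error.

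All 6 loci carried a ZFP57 peak and a KAP1 peak in E14. In A3, ZFP57 was called at 3 loci (Nnat, Inpp5f variant 2 and Peg13) and KAP1 at 4 (the same loci and Zrsr1). The A3 lists thus held fewer of the loci although they were the longer lists for both proteins. Counted over list and locus, 19 of 24 pairs had a peak. Along all chromosomes, 0.571% of 25 kb windows held an E14 ZFP57 peak, 1.25% an E14 KAP1 peak, 1.39% an A3 ZFP57 peak and 8.69% an A3 KAP1 peak. For windows of 30 kb, the size used at Peg13, the same shares were 0.671%, 1.48%, 1.66% and 10.1%. Peaks of all 4 lists met at 3 of the 6 loci, against 0.0388% of 25 kb windows and 0.0466% of 30 kb windows, and 6.31% of the E14 ZFP57 peaks overlapped a peak of each of the other lists. These loci are imprinted regions picked with earlier results in view, so the distance from the background describes them and tests nothing.

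**Figure D2:**
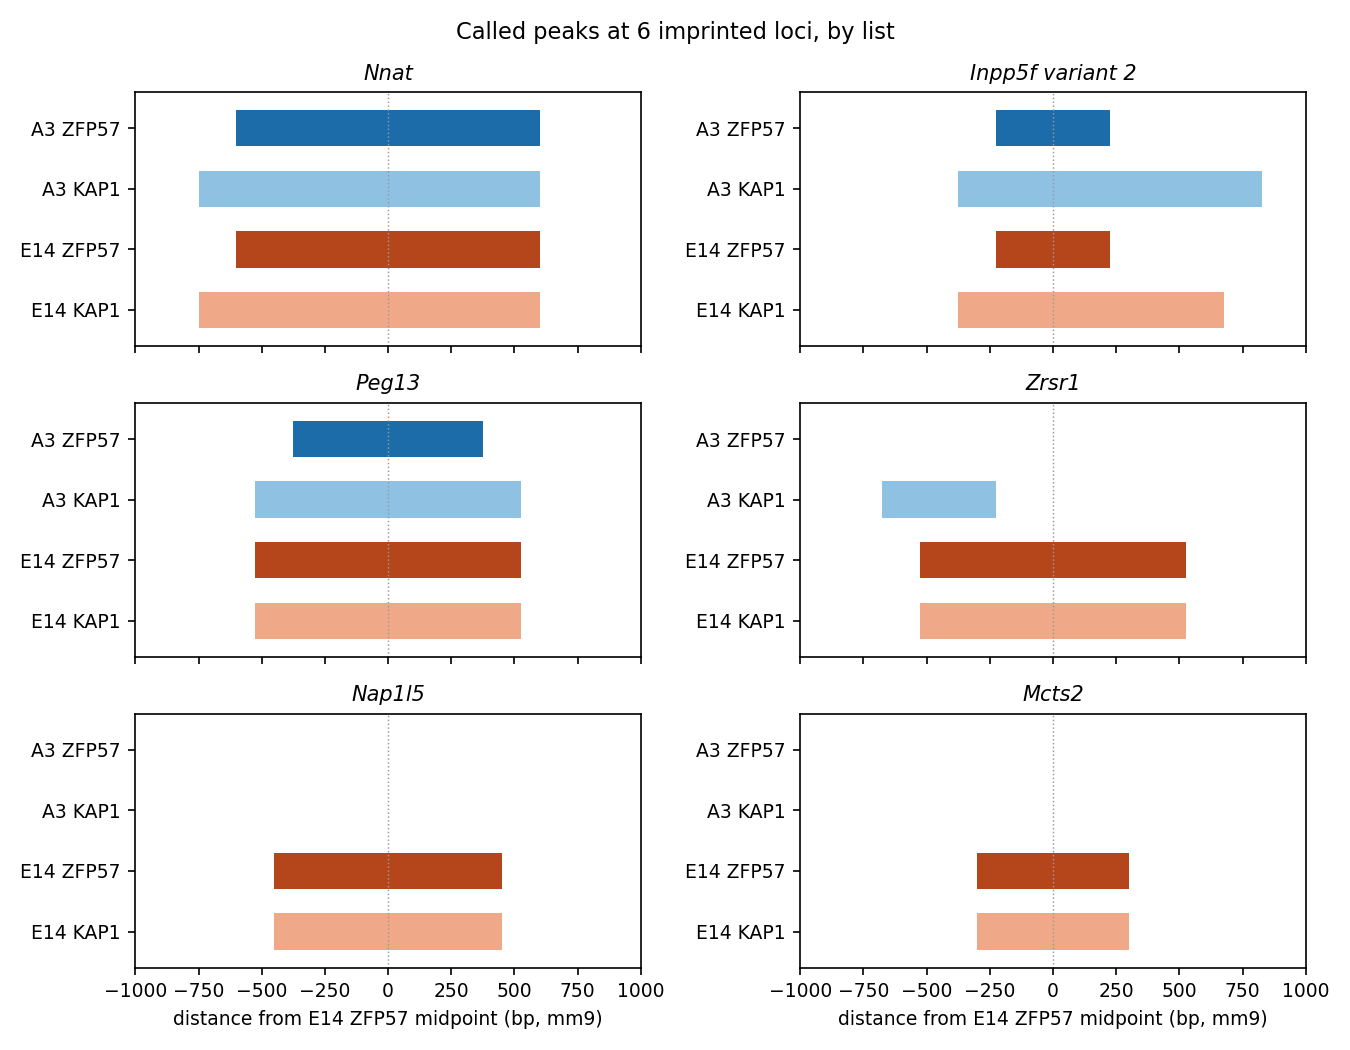
Extent of each called peak (bars) in the 4 lists at the 6 loci, with distance from the midpoint of the E14 ZFP57 peak in bp on the x axis. Bars are present in all lists at Nnat, Inpp5f variant 2 and Peg13, in 3 lists at Zrsr1 and in the E14 lists alone at Nap1l5 and Mcts2; a further A3 KAP1 peak at Zrsr1, 3.90 kb to the left of the E14 peak, lies outside the plotted range.

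Nnat encodes neuronatin, a small membrane proteolipid of neurons and other secretory cells. Its window had the widest ZFP57 peak of the 6 loci in both lines, in E14 only once touching calls were joined. ZFP57 covered chromosome 2 from 157385251 to 157386450 in A3, a width of 1200 bp. In E14 it covered the same 1200 bp as a pair of touching calls of 600 bp, from 157385251 to 157385850 and from 157385851 to 157386450. KAP1 covered 157385101 to 157386450 in A3 and in E14, 1350 bp in each. The KAP1 peaks therefore ended at the same base as the ZFP57 peaks and began 150 bp, a single grid step, before them. Only 1.89% of A3 ZFP57 peaks, 2.99% of E14 ZFP57 peaks, 2.13% of A3 KAP1 peaks and 1.57% of E14 KAP1 peaks were at least as wide as these. As 1 of 38 sites called in all lists, Nnat ranked 4 by width, at 1350 bp against a median of 750 bp.

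Peg13 is a long noncoding RNA within Trappc9, a gene for a subunit of a vesicle tethering complex. All lists had a peak there, and all had the same midpoint. A3 ZFP57 covered chromosome 15 from 72640051 to 72640800, 750 bp. A3 KAP1, E14 ZFP57 and E14 KAP1 each covered 72639901 to 72640950, 1050 bp, so that the A3 ZFP57 peak fell short of the others by 150 bp at either end. It was nevertheless among the wider A3 ZFP57 peaks, of which 8.75% reached 750 bp. Peaks of 1050 bp or more made up 4.32% of E14 ZFP57, 6.23% of A3 KAP1 and 2.47% of E14 KAP1.

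Inpp5f encodes an inositol polyphosphate phosphatase, and its variant 2 is the imprinted transcript. Here ZFP57 and KAP1 differed most in width. ZFP57 was called from 135831301 to 135831750 on chromosome 7 in both lines, 450 bp in each and with identical boundaries. KAP1 spanned 135831151 to 135832350 in A3 (1200 bp) and 135831151 to 135832200 in E14 (1050 bp). The KAP1 peaks began 150 bp before the ZFP57 peak and ran on beyond it by 600 bp in A3 and 450 bp in E14, placing their midpoints 225 bp and 150 bp from that of ZFP57. ZFP57 took up 37.5% of the A3 KAP1 peak and 42.9% of the E14 one. A width of 450 bp was ordinary for ZFP57, reached by 46.0% of A3 and 57.5% of E14 peaks, whereas 3.43% of A3 KAP1 and 2.47% of E14 KAP1 peaks were as wide as those at this locus.

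Zrsr1 encodes a relative of the splicing factor U2AF1 and is thought to derive from the X-linked Zrsr2, while its host Commd1 acts in copper handling. In E14, ZFP57 and KAP1 covered the same 1050 bp of chromosome 11, from 22871851 to 22872900. A3 had no ZFP57 peak in the window, and the closest one on the chromosome was 303 kb away. A3 KAP1 had 2 peaks there. One, of 450 bp from 22871701 to 22872150, covered the left 300 bp of the E14 peaks, which is 28.6% of them, with its midpoint 450 bp to the left. The other, of 600 bp from 22867351 to 22867950, met no peak of any other list. Neither was wide for A3 KAP1, where 86.6% of peaks reached 450 bp and 55.3% reached 600 bp. Of the 4 loci at which both lines called KAP1, this one had the smallest overlap between them, 300 bp against 1050 to 1350 bp.

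Nap1l5, an intronless gene related to the nucleosome assembly protein genes, lies in Herc3, the gene for a ubiquitin ligase, and was called in E14 alone. ZFP57 and KAP1 had identical peaks of 900 bp on chromosome 6, from 58856551 to 58857450. In the E14 lists 5.81% of ZFP57 and 3.82% of KAP1 peaks were at least that wide. The closest A3 peaks were 301 kb away for ZFP57 and 168 kb away for KAP1. The absence in A3 is the absence of a call, since the lists do not show how far a region was below the threshold.

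Mcts2 is a retrocopy of the X-linked Mcts1, which acts in translation, and lies within H13, the gene for signal peptide peptidase. It too was called in E14 alone, with ZFP57 and KAP1 both from 152512351 to 152512950 on chromosome 2, 600 bp in each. This was the narrowest KAP1 peak of the 6 loci in E14. In E14, 29.1% of ZFP57 and 25.6% of KAP1 peaks were at least 600 bp wide. The closest A3 ZFP57 peak lay 922 kb away. The closest A3 KAP1 peak lay 14.4 kb to the left, from 152497351 to 152497950, just outside the window and apart from the E14 peaks.

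**Figure D3:**
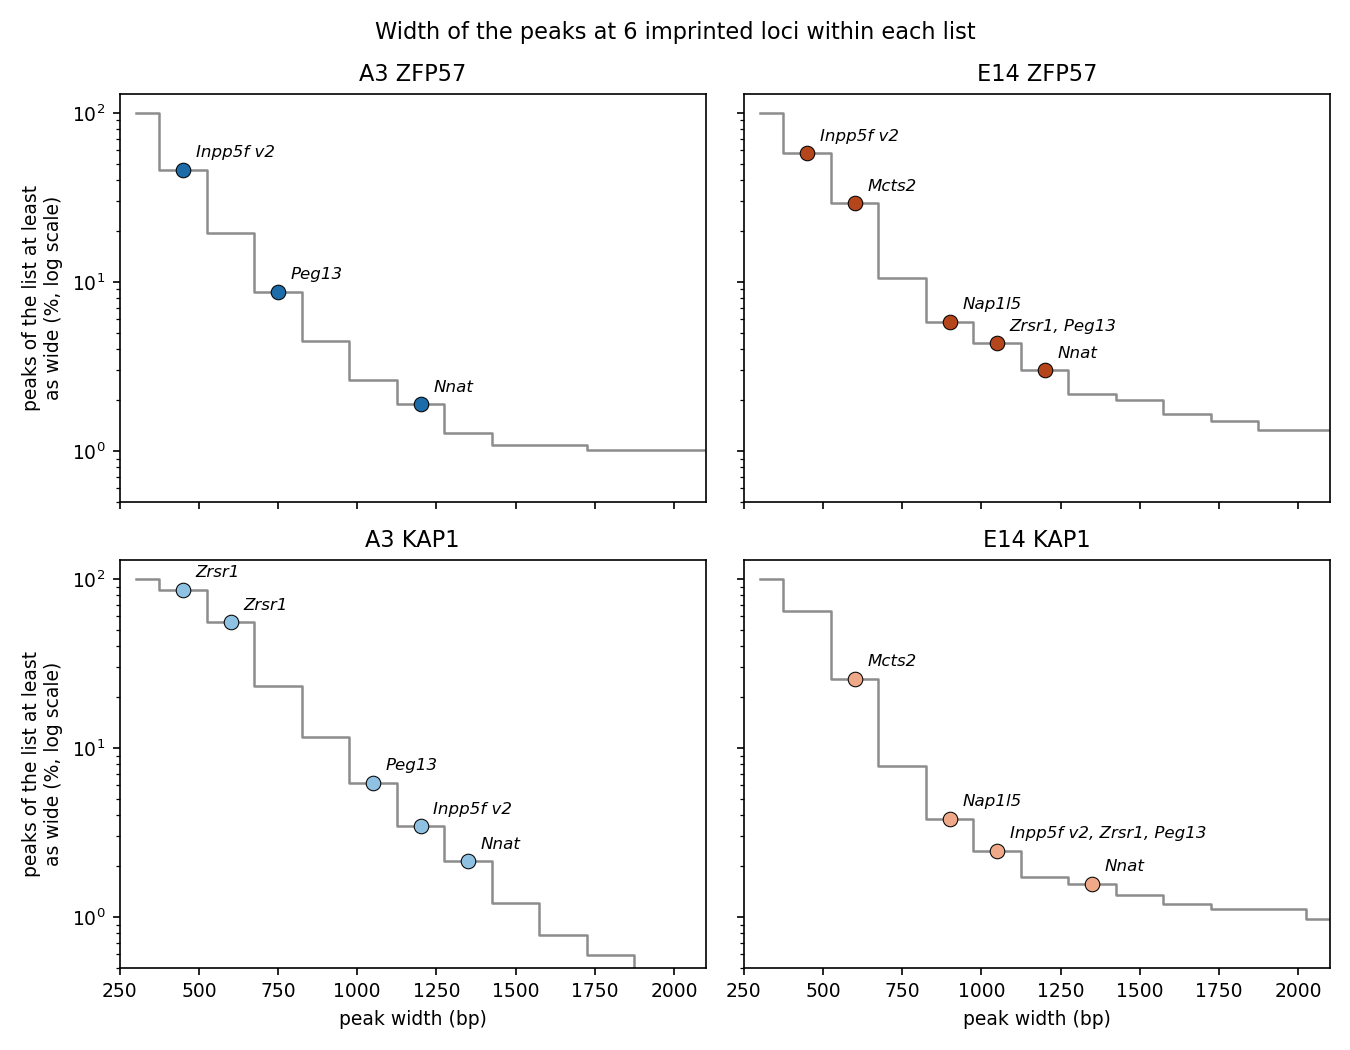
Share of each list's peaks that are at least as wide as a given width (grey steps, percent on a log scale, against width in bp), with the peaks of the 6 loci as points. The Nnat peaks sit farthest right in every list (in E14 ZFP57 as the joined peak), while the ZFP57 peaks of Inpp5f variant 2 and the A3 KAP1 peaks of Zrsr1 sit at common widths.

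Taking the loci as a group, the widths ranged from 450 to 1200 bp for ZFP57 and from 450 to 1350 bp for KAP1. None of the 20 peaks had the smallest width in the lists, 300 bp, which was the width of 54.0% of A3 ZFP57, 13.4% of A3 KAP1, 42.5% of E14 ZFP57 and 35.4% of E14 KAP1 peaks. All 3 A3 ZFP57 peaks were wider than the A3 ZFP57 median of 300 bp, against 46.0% of that list. In E14, 5 of 6 ZFP57 peaks were wider than the median of 450 bp, against 29.1% of the list, and so were 6 of 6 KAP1 peaks, with the same median, against 25.6%. All 6 of these ZFP57 peaks had KAP1, however, and E14 ZFP57 peaks with KAP1 were often wide. Of 160 such peaks, 12 had 300 bp, 45 had 450 bp, 66 had 600 bp, 19 had 750 bp and 18 had at least 900 bp. Most of the 160 thus exceeded 450 bp, so the ZFP57 count does not set these loci apart from other E14 sites with both proteins. The widths of E14 KAP1 peaks with ZFP57 were not computed. Since 122 of the 160 ZFP57 peaks lay wholly inside their KAP1 peak, such KAP1 peaks were often wide too. The KAP1 count therefore does not set the loci apart from those sites either. Among A3 KAP1 peaks, 3 of 5 exceeded the median of 600 bp, against 23.2%. All 3 A3 ZFP57 peaks had KAP1, as only 63 peaks of that list did. Widths among A3 peaks with both proteins were not computed, so the A3 counts are set against whole lists only.

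KAP1 lay at every ZFP57 peak of these loci in the same line. That was 6 of 6 in E14, where 26.6% of all ZFP57 peaks overlapped a KAP1 peak, and 3 of 3 in A3, where 4.24% did. The E14 share rose with width, however. KAP1 was at 12 of the 256 E14 ZFP57 peaks of 300 bp and at 18 of the 35 of at least 900 bp. None of the loci had a 300 bp peak, so 26.6% is a low background for them. Shares by width were not computed for A3 or for KAP1 peaks. Seen from KAP1, ZFP57 was at 6 of 6 peaks in E14, against 12.0% of that list, and at 3 of 5 in A3, against 0.612%. Each ZFP57 peak lay wholly inside its KAP1 peak. Across the lists this held for 76.2% of the E14 ZFP57 peaks with KAP1 and for 85.7% of those in A3, so it was common wherever both proteins were called. In E14, ZFP57 and KAP1 had identical boundaries at Mcts2, Nap1l5, Zrsr1 and Peg13, 4 of 6 loci, against 51.2% of the E14 ZFP57 peaks with KAP1. In A3 the boundaries were identical at 0 of 3 loci, against 38.1%. The E14 share is close to its background, and 3 loci are too few to read the A3 one. Whether the lists of a line were called against the same input is not given in the sources used here.

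Between the lines, the ZFP57 peaks overlapped at Nnat, Inpp5f variant 2 and Peg13, and their midpoints coincided exactly at all of these. Both boundaries were the same at Nnat and Inpp5f variant 2, 2 of 3, against 55.4% of the 56 A3 ZFP57 peaks that met an E14 one. From the A3 side these were 3 of 3 peaks, where 3.77% of the A3 list had an E14 partner, and from the E14 side 3 of 6, where 9.30% had an A3 partner. Among E14 ZFP57 peaks with KAP1 the share with an A3 ZFP57 peak was 31.9%. The same share for A3 ZFP57 peaks with KAP1 was not computed. Only 63 A3 ZFP57 peaks met an A3 KAP1 peak, as all 3 here did, and 38 sites had peaks of all lists. The 38 sites were joined over lists and are not a count out of the 63. They still make an E14 partner likely to be far more common among such peaks than the 3.77% of the whole A3 list. KAP1 peaks overlapped between the lines at 4 of 6 loci seen from E14, against 46.0% of all E14 KAP1 peaks and 50.6% of those with ZFP57. From A3, 4 of 5 peaks did so, against 5.96% of the whole A3 list, in which only 0.612% of peaks had ZFP57. The share among A3 KAP1 peaks with ZFP57 was not computed. The E14-side counts for KAP1 are near their background.

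The width of the E14 ZFP57 peak did not order the loci by whether A3 called ZFP57 there. At the loci with an A3 ZFP57 peak the E14 ZFP57 widths were 450, 1050 and 1200 bp, and at those without one they were 600, 900 and 1050 bp. The ranges overlapped, and the narrowest E14 ZFP57 peak, at Inpp5f variant 2, was at a locus called in all lists. The E14 KAP1 widths were 1050, 1050 and 1350 bp at the loci with an A3 ZFP57 peak and 600, 900 and 1050 bp at those without one, so these ranges met only at 1050 bp. With 3 loci on each side neither pattern was tested. Across the E14 list, wider ZFP57 peaks with KAP1 had an A3 ZFP57 partner more often, with shares of 17.8% at a width of 450 bp, 34.8% at 600 bp, 52.6% at 750 bp and 55.6% for the 18 peaks from 900 bp up. Nnat and Peg13 were among the 10 of these 18 with a partner, and Zrsr1 and Nap1l5 among the 8 without.

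**Figure D4:**
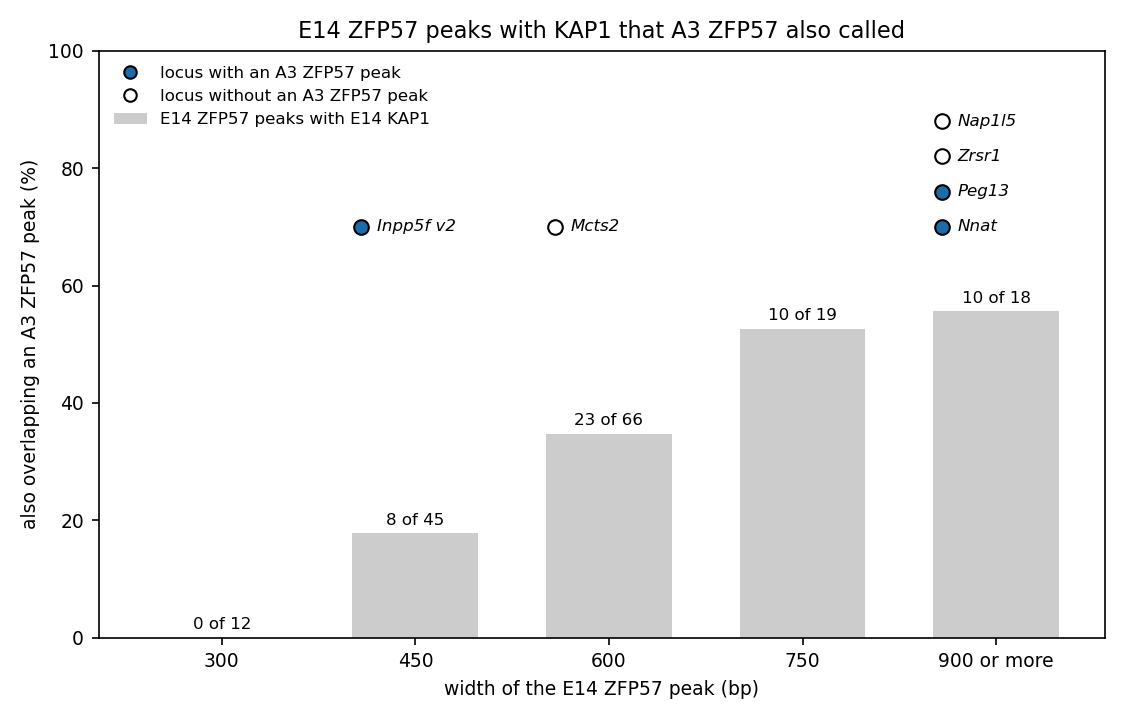
Percent of E14 ZFP57 peaks with E14 KAP1 that also overlap an A3 ZFP57 peak (bars, with counts), by E14 ZFP57 width in bp. Points name the 6 loci at their width class, filled where A3 called ZFP57, and their height carries no value; the bar for 300 bp is 0 of 12, which allows a share of up to 25% (taking 3 counts as the limit).

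Within 100 kb of the E14 ZFP57 peak, no locus had a further peak of A3 ZFP57, E14 ZFP57 or E14 KAP1. This was usual in E14, where 84.4%, 88.5% and 81.9% of all ZFP57 peaks had no further peak of these lists within that distance. A3 KAP1, the longest list, had 2 further peaks at Mcts2, 4 at Zrsr1 and 0 at the other 4 loci, and 45.2% of all E14 ZFP57 peaks had none.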

How the data were processed

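ChIP-seq peak lists of ZFP57 and KAP1 in A3 and E14, 1 list per library, were used. Peak positions, in bp, are as the authors deposited them, in 3 columns with no other measurement. Per the submitters' processing notes, build mm9 and the tools bedtools 2.14.3-1, SAMtools 0.1.18, Bowtie 0.12.7 and CASAVA 1.8.2 were used. How peaks were called is not given in the sources used here. All starts and ends lay on a 150 bp grid and were read as 1-based.

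Overlapping or touching peaks of a list were joined, and a peak belonged to a locus if at least 1 bp lay in its window. Peaks counted as shared from 1 bp of overlap. Background shares came from the whole lists and from windows tiling each chromosome to the last peak of any list. No test was run, since each group has 1 library. Gene names, nesting and promoters are from RefSeq, GRCm38.p6, of which no gene coordinate was set against mm9, and 12 of 15 named genes had a promoter. The rule for named genes took all 6 loci and added their hosts and X-linked relatives, which are not members. The loci, windows and lists were chosen with earlier results of these data known. Alternatives were a wider window, midpoints in the window, wider peaks, 50% reciprocal overlap, a gap of 1 kb and other joining. Overlap counts were tested on simulated data against bedtools 2.31.1. Python 3.11.15, numpy 2.4.6 and matplotlib 3.10.9 were used.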

Additional observations from a re-analysis of the deposited data

How the results depend on the processing

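Of 101 values recomputed under the alternatives for 40 results, 95 stayed within 1.5 times of a count or within 150 bp of a width or midpoint. The other 6 all came from leaving touching peaks unjoined, which gives E14 ZFP57 at Nnat as 2 peaks of 600 bp each, with midpoints -300 and 300 bp from the A3 one and with the E14 KAP1 midpoint 225 and -375 bp from theirs, where the joined peak gave -75 bp. The limit of 1.5 times let a fall from 3 to 2 loci pass as unchanged. Alternatives for widths and midpoints changed only how peaks were joined, so few of those values could move. The 95 are thus a weak check. A 25 kb wider window gave A3 KAP1 at 5 loci, adding Mcts2. With peaks of at least 600 bp, A3 ZFP57 was at 2 loci and E14 ZFP57 at 5. A reciprocal overlap of 50% left KAP1 with ZFP57 at 2 loci in A3 and 5 in E14, and KAP1 shared between the lines at 3. No paired analysis was possible because each group has 1 library and no test was run. Depth is unknown, so an absent peak cannot be told from a weak one.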

Other observations

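In E14, 108 sites had both proteins and no A3 ZFP57 peak, and Mcts2, Nap1l5 and Zrsr1 were 3 of them. Their E14 ZFP57 peaks were 600, 900 and 1050 bp wide, against a median of 600 bp over the 108. At least as wide were 60 of the sites for Mcts2, 8 for Nap1l5 and 4 for Zrsr1, the locus itself counted. A3 KAP1 was called at 42 of the 108 (38.9%) and, of these 3 loci, at Zrsr1. Level and methylation of these regions in A3 were not tested.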
